A study of Mus musculus with 24 samples.

Results

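Dpep3, Sap25, Pde1b, Fam193b, Brf1, Mfsd7a, Ephx1 and Sulf2 are 8 genes, of 54309 gene models counted, whose total RNA changed when wild-type (WT) mouse dendritic cells were given a BRAF-V600E inhibitor. They were chosen by that change: each passed an adjusted p of 0.05 in WT total RNA, 6 higher and 2 lower with the inhibitor. Their values in that comparison are therefore a description and carry no test. The question asked of them was whether the same genes move in mutant cells, and whether they differ between the genotypes and between total and polysome RNA.

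The cells were bone marrow-derived dendritic cells (BMDC), bulk marrow of mice grown for 7 days in medium rich in GM-CSF. The WT groups came from WT mice. The other groups are labelled LCH or mutant, after Langerhans cell histiocytosis, and the labels do not name the allele, its driver, the strain or the age of the animals. Within each genotype, cells had either no inhibitor or 1 h of pre-treatment with the inhibitor, which the labels do not name. All groups, the untreated ones included, then received LPS for 3 h, at 100 ug/mL as the labels give it, and cycloheximide at 100 ug/mL. Total RNA came from an aliquot of the cells, and polysome RNA from 500 uL of pooled gradient fractions with more than 2 polysomes. This gave 8 groups of 3 libraries, 24 in all. Pools are named by letter in the count table: WT has A, BD and C, and LCH has E, F and G (GH in polysome RNA). It is not stated whether untreated and inhibitor libraries of a pool came from the same animals.

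BRAF is a kinase of the MAPK cascade that passes signals from RAS through MEK to ERK. The V600E form signals without RAS and is a recurrent driver of Langerhans cell histiocytosis. Inhibitors made against it lower ERK activity in V600E cells, and several are known to raise ERK activity in cells whose BRAF is normal. LPS, sensed by TLR4, sets off a rapid inflammatory transcription programme in dendritic cells.

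The 8 genes belong to no single pathway. Sap25 encodes a protein of the Sin3 histone deacetylase corepressor complex. Brf1 encodes a subunit of TFIIIB, which places RNA polymerase III on tRNA genes; the gene meant here is ENSMUSG00000011158.9 and not Zfp36l1, an RNA-decay factor for which the same short name is sometimes used. Pde1b encodes a calmodulin-dependent phosphodiesterase of cyclic nucleotides. Dpep3 encodes a membrane-bound dipeptidase family protein best known from testis, and Mfsd7a a membrane transporter of the SLC49 family. Ephx1 encodes microsomal epoxide hydrolase, which detoxifies reactive epoxides, and Sulf2 an extracellular sulfatase that removes 6-O-sulfate from heparan sulfate. Fam193b is named only. In the count table the genes are Dpep3 (ENSMUSG00000031898.10, chromosome 8), Sap25 (ENSMUSG00000079165.11, chromosome 5), Pde1b (ENSMUSG00000022489.7, chromosome 15), Fam193b (ENSMUSG00000021495.11, chromosome 13), Brf1 (chromosome 12), Mfsd7a (ENSMUSG00000029490.5, chromosome 5), Ephx1 (ENSMUSG00000038776.14, chromosome 1) and Sulf2 (ENSMUSG00000006800.15, chromosome 2), all protein-coding.

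The promoters of 7 of the 8 genes were matched by symbol in RefSeq on GRCm38.p6, as 10 windows from 250 bases before to 50 bases after a start site. The following 4 are shown because they belong to the gene that moved in opposite directions in the genotypes (Dpep3), to the 2 next largest WT increases (Sap25 and the first of 3 Pde1b starts), and to the larger decrease (Ephx1). Capitals mark any of 5 motifs searched on both strands, overlaps included: GCGTG (xenobiotic response element core), TGACG (CRE half-site), TGANTCA (AP-1), CACGTG (E-box) and CCGGAAG (ETS).
Dpep3, chr8:105979370-105979669, minus strand: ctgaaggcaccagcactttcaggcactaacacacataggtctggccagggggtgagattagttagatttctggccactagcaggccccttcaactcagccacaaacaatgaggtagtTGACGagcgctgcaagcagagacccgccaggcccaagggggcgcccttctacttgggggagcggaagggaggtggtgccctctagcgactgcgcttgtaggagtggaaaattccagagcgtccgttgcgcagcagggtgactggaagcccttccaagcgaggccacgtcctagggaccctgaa
Sap25, chr5:137641223-137641522, plus strand: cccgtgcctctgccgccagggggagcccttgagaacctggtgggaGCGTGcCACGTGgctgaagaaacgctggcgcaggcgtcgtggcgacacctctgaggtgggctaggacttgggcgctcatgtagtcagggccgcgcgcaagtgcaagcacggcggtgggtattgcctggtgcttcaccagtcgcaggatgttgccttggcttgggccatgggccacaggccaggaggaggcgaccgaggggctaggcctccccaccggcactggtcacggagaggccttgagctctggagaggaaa
Pde1b, chr15:103502784-103503083, plus strand: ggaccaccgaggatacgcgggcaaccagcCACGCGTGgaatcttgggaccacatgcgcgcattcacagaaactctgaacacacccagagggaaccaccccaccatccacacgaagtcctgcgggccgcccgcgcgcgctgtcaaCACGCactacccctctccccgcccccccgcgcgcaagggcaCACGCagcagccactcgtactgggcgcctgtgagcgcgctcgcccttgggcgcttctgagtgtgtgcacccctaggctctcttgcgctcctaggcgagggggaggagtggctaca
Ephx1, chr1:181017520-181017819, minus strand: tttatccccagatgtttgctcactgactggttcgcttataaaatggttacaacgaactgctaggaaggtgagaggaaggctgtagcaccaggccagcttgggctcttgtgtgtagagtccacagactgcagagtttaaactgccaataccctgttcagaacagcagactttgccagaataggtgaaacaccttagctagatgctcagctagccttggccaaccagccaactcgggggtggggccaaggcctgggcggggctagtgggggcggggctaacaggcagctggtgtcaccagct
GCGTG was found in 3 of the 10 windows (Sap25, the first Pde1b window with 4 matches, and the second Sulf2 window with 2), against 32.4% of all 32851 promoters of this length. TGACG was found in 1, that of Dpep3, against 20.8% of all, and CACGTG in 1, that of Sap25, against 7.15%. TGANTCA and CCGGAAG were found in none of the 10, against 7.81% and 8.86% of all promoters. A match is a stretch of letters and was not tested as a binding site.

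Total RNA libraries held 19046640 to 39792221 counts, LCH polysome libraries 9188923 to 30455139 and WT polysome libraries 2017104 to 4090602. Counts of rRNA-type genes (Rn18s, mt-Rnr1, mt-Rnr2 and Lars2) made up 1.19% to 2.32% of total RNA libraries, 18.0% to 65.1% of LCH polysome libraries and 71.4% to 99.2% of WT polysome libraries. Both pool G total RNA libraries had a count in 37388 and 38431 gene models, against 16837 to 18406 in the other 10. Dendritic cell markers (Itgax, Flt3, H2-Ab1 and 9 more) summed to between 9210 and 20789 CPM in each total RNA library, none of the 12 being at 0 in a group. For summed levels of gene lists, here and below, CPM is counts per 1000000 of all counts in a library, without TMM scaling. For single genes it is counts per 1000000 after TMM scaling in edgeR. Neutrophil markers summed to 1746 to 4994 CPM in WT and to 421 to 944 CPM in LCH libraries. In bulk RNA, fewer cells of a type and less RNA per cell cannot be told apart.

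With the inhibitor, WT cells held 2.36 to 3.97 times as much RNA of the 6 genes that rose, and 0.587 and 0.680 times as much of the 2 that fell. In WT total RNA 95 of 13375 genes tested passed the threshold, 0.710% of them, 90 higher (0.673%) and 5 lower (0.0374%). Since these values chose the genes, nothing is read from those shares. The count rests on a spread estimated over both genotypes: it was 6 in WT libraries alone, 1 without pool C, and 2899 (21.7%, 10.5% higher and 11.1% lower) with the pool as a block. Non-overlapping ranges, which all 8 genes had, occurred in 19.6% of tested genes (11.2% higher, 8.45% lower). Ranked by log2 fold change among called genes whose ranges were apart and whose mean reached 5 CPM, the 6 genes held places 3, 4, 5, 7, 9 and 11. A130071D04Rik and Gm47283 ranked above all 6, and Neat1, Gm42047 and Gm11427 held the places between them. The smallest increase of the 6 was 1.24 (log2), for Mfsd7a, and the next genes below were Hyi at 1.09 and Ints6l at 1.084. Ephx1 and Sulf2 were the 2 largest decreases by the same criteria, ahead of Blvra at -0.43.

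**Figure D1:**
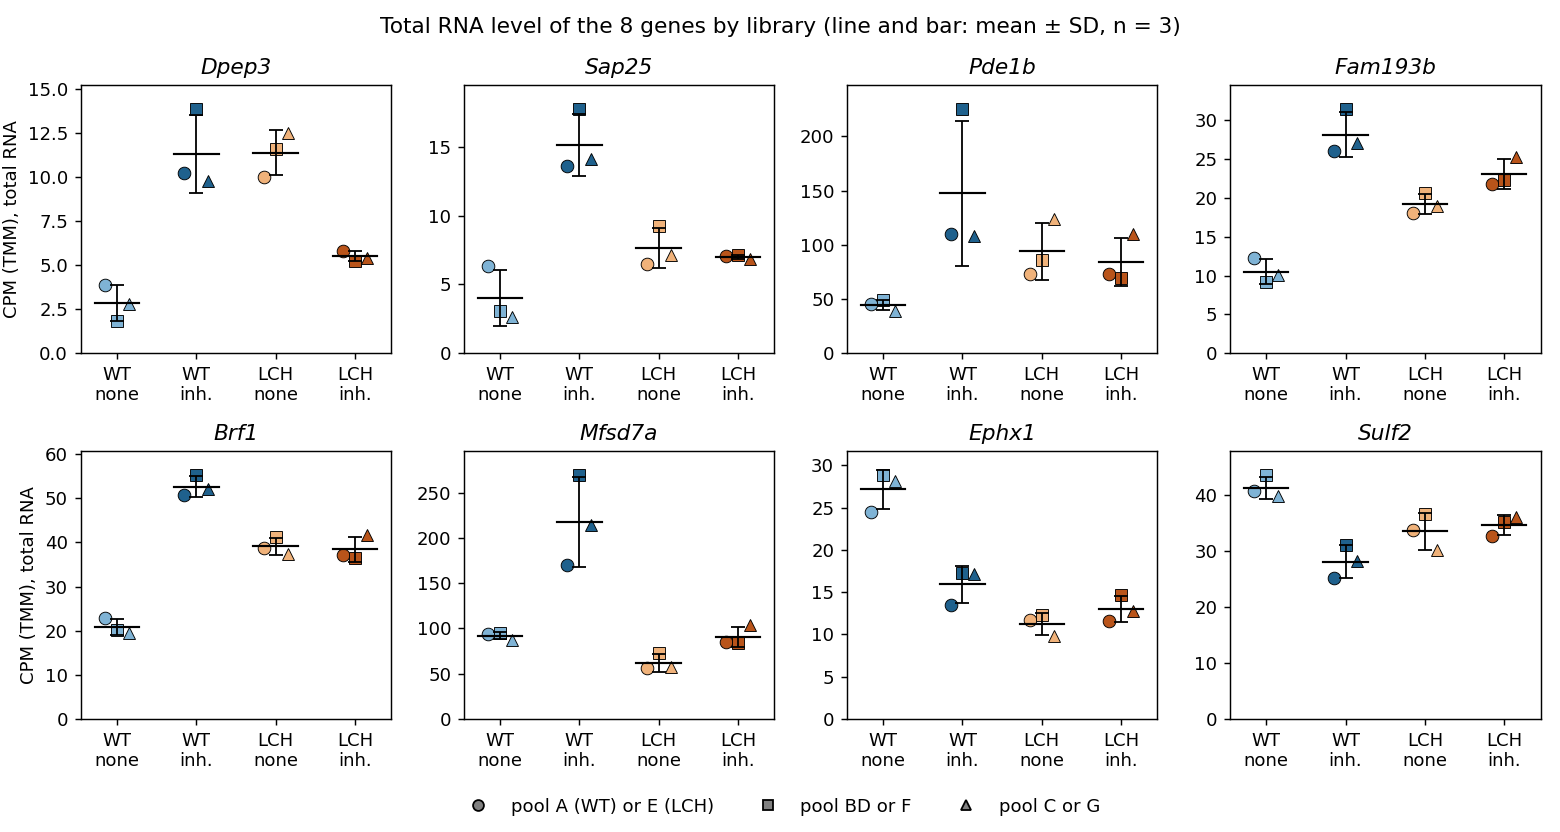
Total RNA level (CPM after TMM scaling, linear axes from 0) of each gene in the 12 total RNA libraries; points are libraries with the shape giving the pool, and lines with bars the mean ± SD of 3. For Dpep3, Sap25, Pde1b, Fam193b and Brf1 the untreated WT libraries lie below all 9 others, and for Ephx1 and Sulf2 above all 9 others.

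Dpep3, the dipeptidase gene, was at 3.87, 1.84 and 2.77 CPM in untreated WT pools A, BD and C and at 10.3, 13.9 and 9.80 CPM with the inhibitor. In LCH pools E, F and G it was at 10.02, 11.6 and 12.5 CPM untreated and at 5.81, 5.25 and 5.42 CPM with the inhibitor. The untreated LCH level was thus within the range of the WT level with inhibitor, and the inhibitor moved the gene up in every WT pool and down in every LCH pool. In WT the log2 fold change was 1.99 (SE 0.23). In LCH it was -1.05 (SE 0.22, 95% interval -1.53 to -0.57), which did not pass in edgeR's quasi-likelihood test (adjusted p = 0.06). Blocking on pool, it passed at a like size (-1.05, SE 0.20, adjusted p = 0.0051, edgeR), in a fit that called 17.2% of all genes and 9.21% as lower.

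Sap25, the Sin3 corepressor gene, was at 6.35, 3.05 and 2.62 CPM in untreated WT pools and at 13.6, 17.7 and 14.1 CPM with the inhibitor. The LCH pools had 6.50, 9.27 and 7.17 CPM untreated and 7.06, 7.11 and 6.86 CPM with the inhibitor. The 2 WT groups did not overlap and the 2 LCH groups did. On the log2 scale it changed by 1.91 (SE 0.28) in WT and -0.12 (SE 0.27, 95% interval -0.72 to 0.47, adjusted p = 0.95, edgeR) in LCH. The value is uncertain in one respect: the gene model Gm20605 covers 1566 of the 1569 bases of Sap25 on the same strand, so reads may be split between them, and Gm20605 itself had a WT log2 fold change of 0.65 (adjusted p = 0.31, edgeR).

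Pde1b, the calmodulin-dependent phosphodiesterase gene, was at 45.7, 48.7 and 39.0 CPM in untreated WT pools and at 109.5, 225.0 and 108.2 CPM with the inhibitor. LCH pools E, F and G held 72.8, 85.6 and 123.6 CPM untreated and 73.4, 68.9 and 109.6 CPM with the inhibitor. Pool BD was the high library among the WT pools with inhibitor, and pool G the high one in both LCH groups. The log2 fold change was 1.73 (SE 0.31) in WT, or 1.29 without the BD library with inhibitor. In LCH it was -0.16 (SE 0.30, 95% interval -0.83 to 0.50, adjusted p = 0.94, edgeR).

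Fam193b was at 12.3, 9.15 and 10.1 CPM in untreated WT pools and at 26.0, 31.4 and 27.1 CPM with the inhibitor. Among LCH pools the values were 18.1, 20.6 and 19.0 CPM untreated and 21.7, 22.3 and 25.3 CPM with the inhibitor. Neither pair of groups overlapped, and both LCH groups lay between the 2 WT groups. Its log2 fold change was 1.42 (SE 0.13) in WT and 0.27 (SE 0.12, 95% interval -0.00 to 0.54, adjusted p = 0.49, edgeR) in LCH.

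Brf1, the TFIIIB subunit gene, was at 22.9, 20.2 and 19.5 CPM in untreated WT pools and at 50.6, 55.2 and 52.0 CPM with the inhibitor. In LCH it was at 38.7, 41.2 and 37.4 CPM untreated and at 37.0, 36.5 and 41.6 CPM with the inhibitor. All 6 LCH libraries lay between the 2 WT groups, and the 2 LCH groups overlapped. The log2 fold change was 1.33 (SE 0.09) in WT and -0.03 (SE 0.09, 95% interval -0.22 to 0.17, adjusted p = 0.97, edgeR) in LCH. The antisense gene Btbd6 shares 2464 bases with Brf1 and was low, at 1.79 CPM; the strand setting of the counting is not given in the sources used here.

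Mfsd7a, the SLC49 transporter gene, was at 94.2, 94.7 and 87.8 CPM in untreated WT pools and at 169.6, 269.3 and 213.9 CPM with the inhibitor. LCH values were 55.9, 72.9 and 57.1 CPM untreated and 85.2, 83.4 and 103.8 CPM with the inhibitor. It was the one riser whose untreated LCH libraries all lay below the untreated WT libraries. The groups did not overlap in either genotype. Its log2 fold change was 1.24 (SE 0.16) in WT and 0.55 (SE 0.16, 95% interval 0.20 to 0.90) in LCH, where the adjusted p of 0.19 (edgeR) did not pass.

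Ephx1, the epoxide hydrolase gene, was at 24.5, 28.8 and 28.1 CPM in untreated WT pools and at 13.4, 17.2 and 17.1 CPM with the inhibitor. In LCH it was at 11.7, 12.3 and 9.79 CPM untreated and at 11.6, 14.6 and 12.7 CPM with the inhibitor. Untreated WT stood above every other library, and the 2 LCH groups overlapped. Its log2 fold change was -0.77 (SE 0.14) in WT and 0.20 (SE 0.14, 95% interval -0.10 to 0.51, adjusted p = 0.69, edgeR) in LCH.

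Sulf2, the heparan sulfate sulfatase gene, was at 40.7, 43.6 and 39.8 CPM in untreated WT pools and at 25.1, 31.1 and 28.2 CPM with the inhibitor. The LCH libraries had 33.9, 36.7 and 30.1 CPM untreated and 32.7, 35.2 and 36.1 CPM with the inhibitor. The LCH groups overlapped each other and lay below untreated WT. The log2 fold change was -0.56 (SE 0.10) in WT and 0.05 (SE 0.10, 95% interval -0.17 to 0.27, adjusted p = 0.95, edgeR) in LCH.

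**Figure D2:**
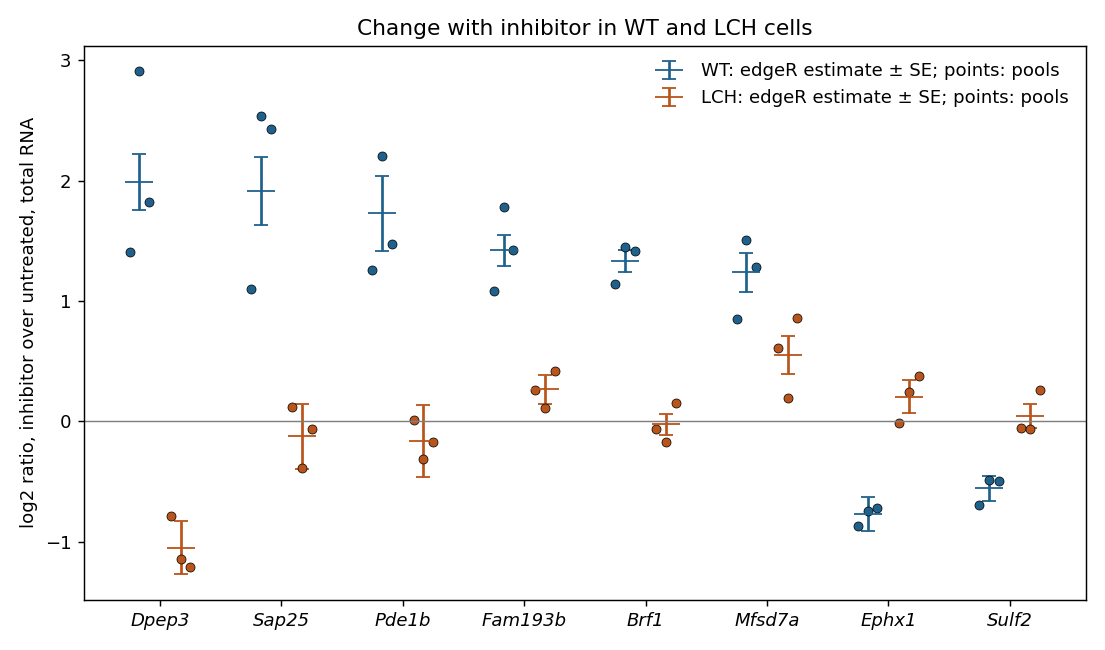
Log2 ratio of inhibitor over untreated total RNA for each gene, with the edgeR estimate ± SE as a line with a bar and each pool's own CPM ratio as a point, WT in blue and LCH in orange. Every WT point is above 0 for the 6 genes that rose and below 0 for the 2 that fell, whereas Dpep3 is the gene with all 3 LCH points below 0 and Fam193b and Mfsd7a have all 3 above it.

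Of the 8 genes, 0 passed in LCH total RNA in the fit without a block, where 99 of 13375 genes passed (0.740%), 19 higher (0.142%) and 80 lower (0.598%). The LCH ranges did not overlap for 3 of the 8, with Dpep3 lower and Fam193b and Mfsd7a higher; the share of all tested genes was 18.3% in either direction, 9.02% higher and 9.33% lower. The 95% intervals in LCH left out a 2-fold increase, a log2 change of 1, for all 6 risers. The highest upper limit was 0.90, for Mfsd7a, against an estimate of 1.24 in WT. The difference between the genotypes' responses was not tested, since the WT libraries chose the genes.

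Of the other genes that passed in WT cells, 84 were higher and 3 lower. In LCH 51 of the 84 (60.7%) had the same sign, against 51.4% of all other tested genes. There 0 of the 87 passed, beside 0.740% of all tested genes. With the pool as a block 9 passed, 7 with the WT sign and 2 against it, beside 17.2% of all tested genes. Neither count is read as a result about the 87. The median log2 fold change of the 84 was 0.78 in WT and 0.04 in LCH. WT and LCH effects come from different libraries.

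**Figure D3:**
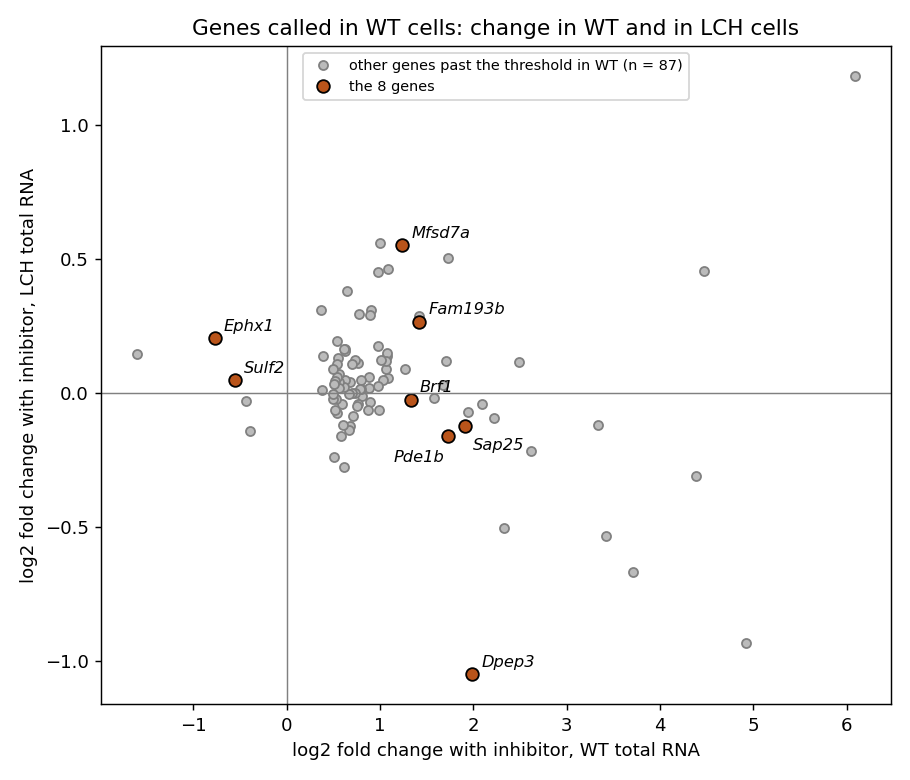
Log2 fold change with inhibitor in WT (x axis) against LCH total RNA (y axis) for the 95 genes that passed in WT, the 8 genes in orange and the other 87 in grey. The WT values chose all 95 points; Dpep3 lies at 1.99 and -1.05, and Mfsd7a at 1.24 and 0.55.

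Averaged over the inhibitor states, a contrast that the choice of genes did not use, LCH cells had less Mfsd7a and less Ephx1 RNA than WT cells. The log2 difference (LCH minus WT) was -0.92 for Mfsd7a (SE 0.11, adjusted p = 9.6e-05, edgeR) and -0.78 for Ephx1 (SE 0.10, adjusted p = 0.0001, edgeR). The fit without a block took the 2 libraries of a pool as independent, so its p-values may be too small. Both genes also passed when pools were blocked (adjusted p = 0.0032 and 0.00053, limma). Dpep3 at 0.48, Fam193b at 0.29 and Brf1 at 0.22 passed as higher in LCH (adjusted p = 0.031, 0.02 and 0.015, edgeR) but failed when pools were blocked (adjusted p = 0.19, 0.16 and 0.14). Sap25 at -0.09, Pde1b at 0.13 and Sulf2 at -0.00 did not pass (adjusted p = 0.73, 0.65 and 1, edgeR). The count of 5 of 8 stands beside 39.7% of all tested genes, 19.7% higher and 20.0% lower, and with the block 2 of 8, both lower, stand beside 26.6% (12.6% higher, 14.1% lower). With rlog values Dpep3 stood at 0.26 (adjusted p = 0.06, limma) and Fam193b at 0.09 (adjusted p = 0.38), and without the low-count filter Fam193b and Brf1 did not pass (adjusted p = 0.057 and 0.12, edgeR). Those 3 calls were also lost on leaving out the untreated library of pool F, BD or C, at 0.354 to 0.466 for Dpep3 (adjusted p from 0.067), 0.237 to 0.272 for Fam193b (from 0.06) and 0.194 to 0.200 for Brf1 (from 0.05). The same happened to Dpep3 without the LCH untreated library of pool G or the inhibitor library of pool E, F, A or C (0.426 to 0.488), and to Fam193b without the inhibitor library of pool G, A or C (0.253 to 0.272).

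The average hides opposite differences within the states, given here as a description because each holds WT libraries that chose the genes. Without inhibitor, LCH minus WT was 2.00 (log2) for Dpep3, 1.081 for Pde1b, 0.93 for Sap25, 0.90 for Brf1 and 0.87 for Fam193b. With inhibitor the same genes stood at -1.04, -0.81, -1.11, -0.45 and -0.28. Mfsd7a was lower in LCH in both states, at -0.57 and -1.26, and so was Ephx1, at -1.27 and -0.30. Sulf2 was at -0.30 without and 0.30 with the inhibitor.

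The genes whose pattern was most like each member's were found by Pearson's r of log2 CPM over the 12 total RNA libraries, among 9017 genes with a mean of at least 5 CPM. The libraries share their genotype and treatment groups, and r is a description. They include the WT libraries that chose the members. A high r among genes that rose in WT, the members included, is therefore in part built in. Brf1 was most like Rbm39 (r = 0.99), a splicing-associated RNA-binding protein gene, and Fam193b most like Brf1 (r = 0.97). Sap25 was most like Cdk11b and Luc7l2 (both 0.96) and Pde1b most like Rsrp1 (0.96) and Wdfy1 (0.95). Dpep3 was most like Zfas1 (0.94), a snoRNA host gene, and Ppid (0.93). Mfsd7a stood closest to H2-K2 and Acaa1a (both 0.97), Ephx1 to Aven and Rnh1 (both 0.96), and Sulf2 to Ebp (0.92) and Psmd8 (0.90). Among themselves, Dpep3, Sap25, Pde1b, Fam193b and Brf1 had pairwise r of 0.81 to 0.97, while r of Mfsd7a with them was 0.22 to 0.63.

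The partners of the 8 genes in their own families and complexes mostly did not pass with the inhibitor in the fit without a block. That fit called 0.710% of all tested genes in WT and 0.740% in LCH. Few calls are expected in lists this short, so their absence is not read as a result about the partners. Of 20 other Sin3 complex genes tested, Ogt, which encodes the O-GlcNAc transferase, rose in WT (log2 fold change 0.78, adjusted p = 0.026, edgeR), and 19 did not pass. None of 22 RNA polymerase III, TFIIIB and TFIIIC genes, 15 phosphodiesterase genes, 23 xenobiotic and NRF2 target genes or 16 heparan sulfate genes passed in WT or LCH. The medians of these 5 lists in WT, 0.02, 0.03, 0.16, -0.14 and -0.19, stood beside 0.01 over all tested genes. Of 3 other SLC49 genes, Slc49a4 rose in LCH (0.75, adjusted p = 0.011, edgeR) and was at -0.25 in WT (adjusted p = 0.35, or 0.017 as lower when pools were blocked).

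More of these genes passed when the pool was a block, in the fit that called 21.7% of genes in WT and 17.2% in LCH. In WT, 2 Sin3 genes were higher and 2 lower, 3 polymerase III genes higher and 1 lower, 3 phosphodiesterase genes higher, 3 xenobiotic and NRF2 genes higher and 6 lower, and 6 heparan sulfate genes lower. In LCH, 8 xenobiotic and NRF2 genes were higher and 1 lower, while the other 4 lists had 1 to 3 genes higher and 1 to 4 lower.

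Between genotypes, 8 of the 16 heparan sulfate genes were higher in LCH and none lower, among them Hs3st3b1 at 1.52 (adjusted p = 2.6e-05, edgeR), while Sulf2 itself did not pass. Of the 23 xenobiotic and NRF2 genes 11 were lower and 2 higher in LCH. The smallest p of that list was that of Cyp1b1, a cytochrome P450 gene, higher at 1.99 (adjusted p = 1.7e-05, edgeR), and Nqo1, a quinone reductase gene, was lower at -1.34 (adjusted p = 9e-05). These counts stand beside 19.7% higher and 20.0% lower over all genes. With the pool as a block they were 6 higher and none lower, and 2 higher and 11 lower, beside 12.6% and 14.1%.

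ERK output genes fell in LCH cells with the inhibitor, 6 of 18 passing (median log2 fold change -1.03), or 14 of 18 with the pool as a block. Among them were Dusp6, the ERK phosphatase gene, at -2.45 (adjusted p = 0.0012, edgeR) and Ccnd1 at -1.92 (adjusted p = 0.0017). In WT none of the 18 passed (median 0.06), or 1 higher and 2 lower with the block.

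Of 12 nuclear and snoRNA-host noncoding RNA genes, 2 rose in WT with the inhibitor, Neat1 by 1.67 (adjusted p = 0.025, edgeR) and Zfas1 by 0.61 (adjusted p = 0.024), and 10 did not pass. With the block 6 of the 12 were higher in WT. None passed in LCH, or 1 lower with the block. Their summed level, to which Neat1 (mean 638 CPM) and Malat1 (267 CPM; adjusted p = 0.074 in WT, edgeR) gave most, was 493 to 848 CPM in untreated WT and 1311 to 2171 CPM in WT with inhibitor. In LCH it was 921 to 1020 and 828 to 948 CPM, with 1 of the 12 at 0 in each group.

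Neutrophil markers summed to 1746 to 3574 CPM in untreated WT and 2520 to 4994 CPM with inhibitor, and eosinophil, mast cell and basophil markers to 511 to 817 and 708 to 1193 CPM. No marker of either list was at 0 in a WT group. In the fit without a block none of these 24 passed with the inhibitor, nor did any of 12 macrophage and monocyte markers. With the pool as a block, 8 neutrophil markers were higher and 1 lower in WT, and 7 of the eosinophil, mast cell and basophil list higher. Of the macrophage and monocyte markers, 9 were lower and 2 higher in WT. The WT shares over all genes were 10.5% higher and 11.1% lower. In LCH with the block, 5 neutrophil markers and 2 of the eosinophil, mast cell and basophil list were lower, and none higher. Macrophage and monocyte markers had 3 higher and 1 lower in LCH. That fit called 17.2% of all genes in LCH, 9.21% as lower. The part of nuclear RNA or of these cell types in the WT changes was not tested.

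In LCH polysome RNA, which samples mRNA loaded with several ribosomes, 0 of 10757 genes passed with the inhibitor (0%) and 289 had an unadjusted p under 0.05; DESeq2 called 24. All 8 genes were tested and the untreated and inhibitor ranges overlapped for each. Dpep3 was at 0.966, 16.3 and 1.58 CPM untreated and at 0.929, 8.14 and 3.42 CPM with inhibitor in pools E, F and GH. Mfsd7a was at 10.2, 45.6 and 8.94 CPM untreated and at 17.5, 65.1 and 15.8 CPM with inhibitor. Pool F was the high library of its group for Dpep3, Sap25, Pde1b, Fam193b, Brf1 and Mfsd7a, and it had the most rRNA-type counts, 65.1% and 60.7%. The log2 fold changes ran from -0.57 for Dpep3 (SE 1.14) to 0.86 for Fam193b (SE 0.81), and every adjusted p was 1 (edgeR).

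The ratio of polysome to total RNA in LCH cells was tested over 12 libraries with each culture as a block, and gives a relative loading after scaling. Pairing polysome pool GH with total RNA pool G is an assumption. For Sulf2 the ratio was 0.454, 0.0531 and 0.672 untreated and 0.447, 0.546 and 0.325 with inhibitor in pools E, F and G. All 6 ratios of Sulf2 were below 1, with the lowest in untreated pool F, where the polysome count was 5. Its log2 difference of -1.41 (SE 0.37, adjusted p = 0.011, edgeR) passed as lower, in a comparison that called 42.0% of all 14816 genes tested, 24.1% lower and 17.9% higher, with a median of -0.27. Without the pool E polysome library with inhibitor, Sulf2 stood at -1.47 (adjusted p = 0.054), and without the matching total RNA library at -1.48 (adjusted p = 0.053).

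Brf1 had ratios of 1.51, 2.36 and 1.13 untreated and 1.19, 2.57 and 0.854 with inhibitor. Pool F was highest in both states. Brf1 passed as higher (log2 0.56, SE 0.21, adjusted p = 0.04, edgeR), but without pool F it fell to 0.12 and the call was lost. The Brf1 call was also lost without the untreated polysome library of pool E (0.54, adjusted p = 0.056) or either inhibitor library of that pool (0.57, adjusted p = 0.11 and 0.1). Pde1b, at 0.200, 0.896 and 0.233 untreated and 0.246, 0.937 and 0.170 with inhibitor, was below 1 in all 6 cultures. Its log2 difference of -1.55 (SE 0.48) had an adjusted p of 0.052 (edgeR), and without pool F it was -2.33. Pde1b passed without a single untreated library of pool E or G, at -1.44 to -1.39. Leaving out pool F also brought Mfsd7a to -1.39 from -0.67 (adjusted p = 0.28, edgeR). It brought Dpep3 to -1.26 from -0.23 (adjusted p = 0.81, edgeR). Mfsd7a was at -0.60 (adjusted p = 0.041, edgeR) without the untreated polysome library of pool E. The fit without pool F was added after seeing the data. It rests on pools E and G alone, so its p-values are not given and no gene is reported as passing in it. Sap25 at 0.04, Fam193b at 0.53 and Ephx1 at -0.87 did not pass (adjusted p = 0.95, 0.39 and 0.31, edgeR).

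**Figure D4:**
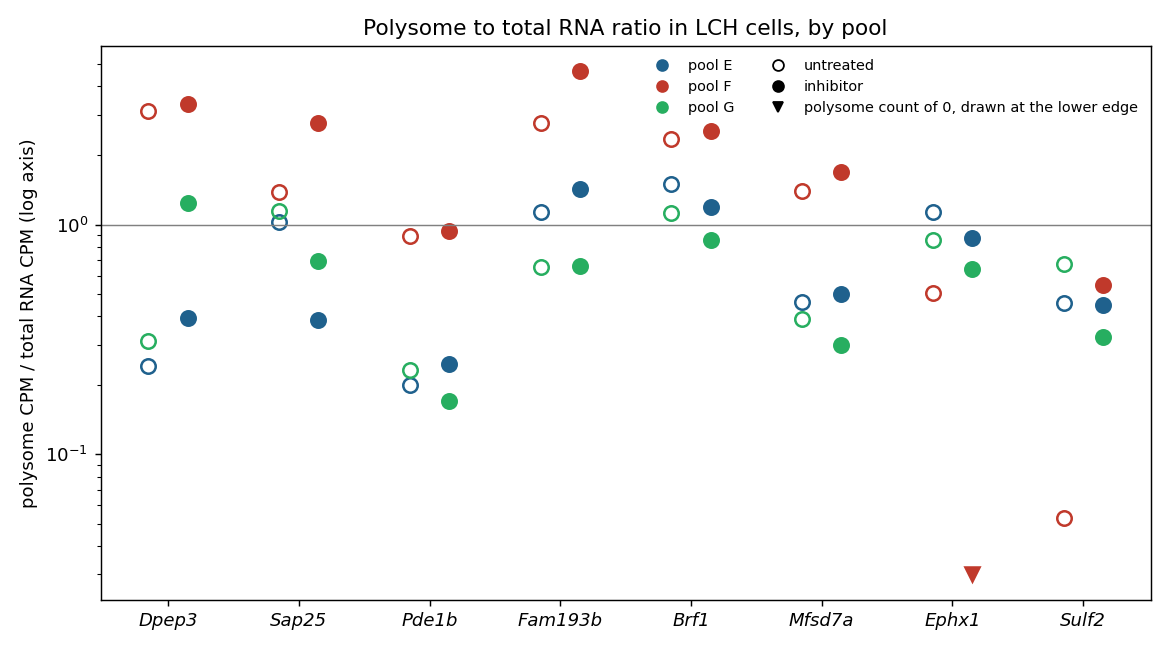
Polysome CPM divided by total RNA CPM of the same culture in LCH cells (log axis), open points untreated and filled points with inhibitor, coloured by pool. Pool GH of polysome RNA was taken as pool G of total RNA. Pool F lies above pools E and G for Dpep3, Sap25, Pde1b, Fam193b, Brf1 and Mfsd7a in both states; Ephx1 with inhibitor in pool F had a polysome count of 0 and is drawn as a triangle at the lower edge.

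The inhibitor's effect on this ratio passed for 0 of 14816 genes in LCH cells (0%; 205 had an unadjusted p under 0.05, and DESeq2 called 3). The log2 change for the 8 genes ran from -1.11 for Ephx1 (SE 1.22) to 0.97 for Dpep3 (SE 1.17), every adjusted p being 1 (edgeR). Intervals this wide do not show that loading was the same in both states.

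WT polysome RNA was too shallow to test the 8 genes: 0 of them passed the low-count filter, which 1605 genes passed. Outside rRNA-type genes these libraries held 24065 to 1171449 counts. Of the 48 values of the 8 genes in 6 libraries, 37 were 0, and Dpep3 and Pde1b were at 0 in all 6. A count of 0 allows up to 3 counts, or 0.733 to 1.49 CPM of all counts in these libraries, for counting error only. Since 71.4% to 99.2% of those counts were of rRNA-type genes, this limit is not on the scale of the total RNA CPM. It does not show that Dpep3 or Pde1b was lower in this fraction. Over the 3 pools, Sulf2 summed to 146 counts untreated and 41 with inhibitor, Sap25 to 55 and 0, Mfsd7a to 44 and 35, Fam193b to 24 and 34, Brf1 to 10 and 0, and Ephx1 to 1 and 0. The Sulf2 counts all came from pool BD, the deepest outside rRNA-type genes in both states. The inhibitor contrast in this fraction called 0 of 1605 genes in edgeR (0%), with 24 at an unadjusted p under 0.05 and 1 called by DESeq2.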

How the data were processed

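RNA-seq libraries of mouse BMDC in 8 groups of 3 were analysed. Per the submitters' processing notes the authors used Salmon and DESeq2 with the build mm9, without versions; the files name no build, and 4.24% of 21091 matched protein-coding genes started within 5000 bases of their GRCm38.p6 position, so file coordinates are not printed. The authors deposited whole-number counts per gene model, which served every main result, and regularised log2 values (rlog), used as an alternative. Their normalized table was not used, since its ratio to the raw counts varied within a library by up to 6.71 times its median. Columns were assigned to groups by genotype, inhibitor and fraction in their names, and pool GH was taken as pool G.

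The test was that of edgeR 4.0.16, run under R 4.3.3 (quasi-likelihood, robust, TMM, filterByExpr with a minimum count of 10), two-sided, with Benjamini-Hochberg adjustment over all genes tested and a threshold of 0.05. The 4 total RNA groups shared 1 fit, and polysome RNA was fitted per genotype. SE is that of a log2 fold change. CPM is the count per 1000000 after TMM, save for summed levels of gene lists and the limits of a count of 0. Those are per 1000000 of all counts in a library. The fits were tested on simulated counts, drawn independently for each library, unlike the libraries of a pool here. In that test the WT polysome contrast recovered none of the changed genes. The LCH polysome and loading-change contrasts made few calls, some of them of unchanged genes. Alternatives were RLE scaling, no filter, DESeq2 1.42.0, limma 3.58.1 on rlog, the pool as a block (for the genotype contrast through limma's duplicateCorrelation, 0.61), fewer libraries and, added after seeing the data, pool F left out. Same-pool deviations correlated at 0.42, 0.37 and 0.11 in WT total RNA and at 0.52, 0.35 and 0.73 in LCH total RNA. Between pools the values ran from -0.39 to 0.06 in WT and from -0.62 to 0.37 in LCH. Pools E and F gave 0.37 and 0.32 with each other, so they were hardly told apart. The pool was a block in an alternative fit only, on the ground of these data and the column names. The main total RNA fit had no block. P-values of fits without a block measure the spread between the 3 libraries of a group, all libraries taken as independent. For the genotype contrast this counts the untreated and inhibitor libraries of a pool separately, so its p-values without a block may be too small. With the pool or culture as a fixed block, p-values measure the spread of differences within pools or cultures. The number and depth of libraries limit precision. Count limits cover counting error only.

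The genes and the gene lists were chosen with earlier results of these data known. Named are the 8 genes, the 2 most alike genes of each, the called genes beside them in rank, up to 2 genes of smallest p per list and contrast, and overlapping genes; Hs3st3b1, Cyp1b1, Nqo1 and Malat1 were added after their values were seen. List counts with the pool as a block were added after seeing the data. The RefSeq promoter table (GRCm38.p6) was matched by symbol.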

Additional observations from a re-analysis of the deposited data

Results flagged for a closer look

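Dpep3 responded in opposite directions in the genotypes: its total RNA rose with the inhibitor in 3 of 3 WT pools, by 2.65, 7.52 and 3.53 times, and fell in 3 of 3 LCH pools, to 0.580, 0.452 and 0.433 times the untreated level. The LCH fall did not pass without a block (adjusted p = 0.06, edgeR), nor when any pool or library was left out. It did pass with the pool as a block. LCH ranges lay apart, with the inhibitor lower, in 9.33% of all tested genes. The log2 effect in LCH minus that in WT was -3.04, and this difference was not tested, because the WT libraries were used to choose the gene. All 8 genes moved 1 way in every WT pool, the libraries that chose them. Only for Dpep3 did all LCH pools move the other way.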

How the results depend on the processing

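In WT total RNA the 8 genes kept their direction under every alternative run. Those libraries chose the genes, so a kept direction was to be expected and is no support. The changes were smaller with rlog, at 1.16 for Dpep3, 1.22 for Sap25, 1.15 for Pde1b and 0.95 for Brf1. The count of 95 genes called moved to 299 without the low-count filter, 468 with DESeq2, 2899 with the pool as a replicate block, 6 with WT libraries alone, and 1 to 244 when a pool or library was left out. In LCH total RNA the count of 99 moved to 342 without the filter, 409 with DESeq2, 2302 with the block, 57 with rlog values, and 3 to 73 with a pool or library left out (3 without pool F). Dpep3 also passed in LCH with DESeq2 (-1.06), without the filter (-1.04) and with LCH libraries alone (-1.05), but failed on leaving out any pool or library (-1.18 to -0.96); Mfsd7a passed with DESeq2 (adjusted p = 0.049) and without the filter (0.0029). Counts of 0 in LCH polysome RNA became 36 without the filter, 24 with DESeq2, 29 with the block and 0 to 1 with a pool or library left out; in WT polysome RNA 1 with RLE scaling, 1 with DESeq2, 4 with the block, 1 without rRNA-type genes and 0 to 1 with a pool or library left out; for the loading change 4 without the filter, 3 with DESeq2 and 1 to 32 with a pool or library left out. The cause of these shifts was not tested.

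Some signs turned, none of them in a value that passed; in polysome RNA and loading the turned values were often far from 0. The genotype difference of Sulf2 became 0.0030 with RLE scaling and 0.0025 with DESeq2, and ran from -0.0446 to 0.0361 with a pool or library left out, as Sap25 did from -0.2159 to 0.1525. Leaving out pools or libraries in LCH total RNA gave -0.2369 to 0.0437 for Sap25, -0.4022 to 0.0856 for Pde1b, -0.115 to 0.045 for Brf1 and -0.0524 to 0.1201 for Sulf2. In LCH polysome RNA rlog gave 0.0216 for Dpep3, -0.0895 for Sap25 and 0.0265 for Pde1b, and the block -0.3413 for Sap25. Leaving out pools or libraries there gave -1.4952 to 1.6407 for Dpep3, -1.139 to 0.5387 for Sap25, -1.0098 to 0.7871 for Pde1b, -0.2458 to 1.7529 for Fam193b, -0.6172 to 0.3569 for Brf1, -0.3538 to 1.7234 for Mfsd7a, -0.8614 to 0.0997 for Ephx1 and -0.2675 to 0.9235 for Sulf2. For loading, Dpep3 was at 0.4535 without the replicate block, Sap25 at -0.2270 without the filter and -0.0242 without rRNA-type genes, and left-out pools or libraries gave -1.2606 to 0.1163 for Dpep3, -0.4981 to 0.3185 for Sap25 and -0.1976 to 0.8922 for Fam193b. For the loading change, Sap25 was at 0.0719 without the block, Pde1b at 0.0863 with RLE scaling, 0.0927 with DESeq2 and 0.0833 without rRNA-type genes, and Mfsd7a at 0.1160, 0.1200 and 0.1141 under the same 3. Left-out pools or libraries gave -1.2395 to 0.206 for Sap25, -0.8073 to 0.5908 for Pde1b, -0.4341 to 1.0305 for Fam193b, -0.7057 to 0.1488 for Brf1, -0.7537 to 0.5605 for Mfsd7a and -0.616 to 1.05 for Sulf2. Beside the calls the report gives under the block, the one further change was Pde1b loading, which passed without the block (-1.30, adjusted p = 0.033).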
